A study of Mus musculus with 12 samples.

Results

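The 9 immediate early genes described here are Fos, Fosb, Jun, Junb, Atf3, Egr1, Klf6, Ier2 and Dusp1, out of 8251 genes with a probe set of a single symbol on the mouse MG_U74Av2 array. All 9 have at least 1 probe set annotated to that symbol alone, 14 in all, and 4 of the 9 have more than 1. They are taken by symbol, with no threshold on a measured value, though the set was put together with earlier results of these arrays known. Dusp1 encodes a phosphatase that inactivates MAP kinases and is not a transcription factor, and Ier2 is a nuclear protein whose binding to DNA is less well defined than that of the others.

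Immediate early genes are transcribed within minutes of a signal, without prior protein synthesis, when growth factors, stress or tissue handling activate MAP kinases and the factors SRF and CREB. Many of their products are transcription factors: Fos and Jun proteins pair through leucine zippers to form AP-1, and Egr1 and Klf6 bind GC-rich DNA through zinc fingers. In the kidney this response is best known from injury and growth factor stimulation of tubule cells, and the messages are short-lived because their 3′ ends carry destabilising elements.

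The 12 arrays were made from kidney structures dissected by morphology from wild-type Swiss Webster mouse embryos at E14.5 (Theiler stage 22, sex unknown), with 3 arrays in each of 4 groups. The groups were single S-shaped bodies (1 structure per sample), pooled S-shaped bodies (20 per sample), pooled renal vesicles (20 per sample) and collecting ducts (1 per sample), the last being the study's stated comparison sample. The renal vesicle is the first epithelial stage of the nephron, the S-shaped body a later one that endothelial cells enter, and the collecting duct descends from the ureteric bud. All RNA went through 2 rounds of T7 amplification, and the labels do not say whether samples of a group came from separate embryos, so p-values measure the spread between these samples only. The pooled structures differ from collecting duct in the number of structures per sample as well as in kind, while single S-shaped bodies share 1 structure per sample with it.

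The deposited array intensities differed in brightness, with group means of 47.0 in single S-shaped bodies, 226 in the pooled S-shaped bodies, 116 in renal vesicles and 304 in collecting ducts, and the brightest array's median was 17.8 times that of the dimmest. Levels below are therefore log2 of quantile-normalized intensity plus a pseudocount of 7.22, on which 2.85 is the level of a value at or under 0, and a fold change on this scale understates the change of dim genes. A probe set counts as above background where its intensity exceeds the size of the array's negative 5th percentile. Replicates of a group correlated with r between 0.91 and 0.98 over all probe sets. Actin signal at the 3′ probe set divided by that at the middle one, a measure of how far transcripts were shortened, averaged 8.69 in single S-shaped bodies, 3.67 in the pooled S-shaped bodies, 8.58 in renal vesicles and 8.25 in collecting ducts. The 3′ to 5′ ratio of Gapdh averaged 10.8 in single S-shaped bodies, 23.9 in the pooled ones, 11.0 in renal vesicles and 10.3 in collecting ducts, and that of actin 85.7 in single S-shaped bodies, 38.3 in the pooled ones, 39.6 in renal vesicles and 51.2 in collecting ducts. These measures did not rank the groups alike. The labelled identities were matched by most markers: 10 of 10 early nephron genes were above background on all renal vesicle arrays and 12 of 14 ureteric bud genes on all collecting duct arrays, where Ret and Calb1 stood at or under 0. These markers were not confined to their groups. On all collecting duct arrays 5 of 10 early nephron genes were above background. Of the 14 ureteric bud genes, 6 were so in renal vesicles, 6 in pooled and 5 in single S-shaped bodies, on all arrays of the group. Wnt4 stood at or under 0 on all 6 S-shaped body arrays. Endothelial markers had summed levels of 6540 to 8732 in single S-shaped bodies, 6902 to 8438 in the pooled S-shaped bodies, 1504 to 3176 in renal vesicles and 47.5 to 84.2 in collecting ducts.

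The promoters of 7 of the 9 genes are given because most of these genes differed together between structures and because short elements just upstream of the start are the known entry points of the response. The windows are the 150 bases before each start in RefSeq on GRCm38.p6, written 5′ to 3′ along the gene's strand. They lie at chr12:85473740-85473889 on the plus strand for Fos, chr7:19310046-19310195 on the minus strand for Fosb, chr4:95052223-95052372 on the minus strand for Jun, chr8:84978749-84978898 on the minus strand for Junb, chr1:191183334-191183483 on the minus strand for Atf3, chr13:5861339-5861488 on the plus strand for Klf6 and chr17:26508473-26508622 on the minus strand for Dusp1. Egr1 and Ier2 had no window. Capitals mark the motifs found on either strand among TGACG (the short site of the cAMP response element), TGACGTCA (its full form, which holds TGACG on both strands), TGACATCA (the AP-1 element described in the Jun promoter), TGACTCA (the classical AP-1 element) and TATAAA, and the CArG box, to which SRF binds.
Fos: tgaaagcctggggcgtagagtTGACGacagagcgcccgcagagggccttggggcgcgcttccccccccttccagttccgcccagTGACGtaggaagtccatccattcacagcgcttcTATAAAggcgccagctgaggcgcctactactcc
Fosb: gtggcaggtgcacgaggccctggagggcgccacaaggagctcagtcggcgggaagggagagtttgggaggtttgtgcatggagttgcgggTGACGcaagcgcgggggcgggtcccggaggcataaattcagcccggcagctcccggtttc
Jun: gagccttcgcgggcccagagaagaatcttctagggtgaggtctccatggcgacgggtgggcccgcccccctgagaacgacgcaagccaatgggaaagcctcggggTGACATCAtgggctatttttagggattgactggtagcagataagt
Junb: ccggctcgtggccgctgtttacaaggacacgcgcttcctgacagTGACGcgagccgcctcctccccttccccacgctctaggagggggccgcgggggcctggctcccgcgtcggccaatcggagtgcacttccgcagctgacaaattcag
Atf3: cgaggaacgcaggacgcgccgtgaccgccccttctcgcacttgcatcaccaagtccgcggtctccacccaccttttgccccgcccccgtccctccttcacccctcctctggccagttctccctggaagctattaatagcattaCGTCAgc
Klf6: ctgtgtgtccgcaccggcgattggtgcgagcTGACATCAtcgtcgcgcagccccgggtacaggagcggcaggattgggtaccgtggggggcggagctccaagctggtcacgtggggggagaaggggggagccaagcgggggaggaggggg
Dusp1: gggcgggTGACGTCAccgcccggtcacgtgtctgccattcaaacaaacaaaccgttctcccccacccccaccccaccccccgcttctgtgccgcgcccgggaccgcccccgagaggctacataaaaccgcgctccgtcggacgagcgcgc

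TGACG was present in 5 of these 7 windows, against 13.3% of the 32851 windows of the same length in the reference table. Fos held it at 2 places, 129 and 66 bases before the start, followed by a TATAAA that begins 33 bases before it. In Atf3 it lay on the opposite strand, written CGTCA above, ending 3 bases before the start. Dusp1 held the full TGACGTCA, present in 1.36% of all windows, and Jun and Klf6 both held TGACATCA, present in 2.32%. Neither TGACTCA (2.84% of all windows) nor the CArG box (0.916%) was in any of the 7, which says only that those letters are not in the 150 bases shown.

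All 9 genes were lower in renal vesicles than in collecting ducts, and 8 of 9 were lower in pooled S-shaped bodies. In single S-shaped bodies all 9 were again lower than in collecting ducts, with Dusp1 at the threshold. The counts and medians given here include Junb, which was under background on all S-shaped body arrays and above it on 1 renal vesicle array. With S-shaped bodies alone Junb fell below the filter on dim probe sets. Its S-shaped body calls were therefore tested only through the other groups of the fit, chiefly collecting ducts, where it was high. Among all genes tested, 18.9% were called lower than in collecting ducts in single S-shaped bodies, 21.1% in pooled ones and 12.2% in renal vesicles. Every array lay below every collecting duct array for 8 genes in single S-shaped bodies, 8 in pooled ones and 9 in renal vesicles, beside 26.8%, 29.1% and 20.9% of all genes. The median log2 change of the 9 genes was -3.13 for single S-shaped bodies, -2.77 for pooled S-shaped bodies and -2.24 for renal vesicles, each minus collecting duct, beside medians of -0.08, -0.08 and -0.01 over all genes. With Junb at its bound the first 2 medians were -2.64 and -2.41. These 3 comparisons share the collecting duct arrays. Calls are limma's moderated test with Benjamini-Hochberg adjustment over all tested probe sets at 0.05, and a lower level in a dissected structure may come from fewer cells that hold the message or from less of it per cell, which cannot be told apart here.

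**Figure D1:**
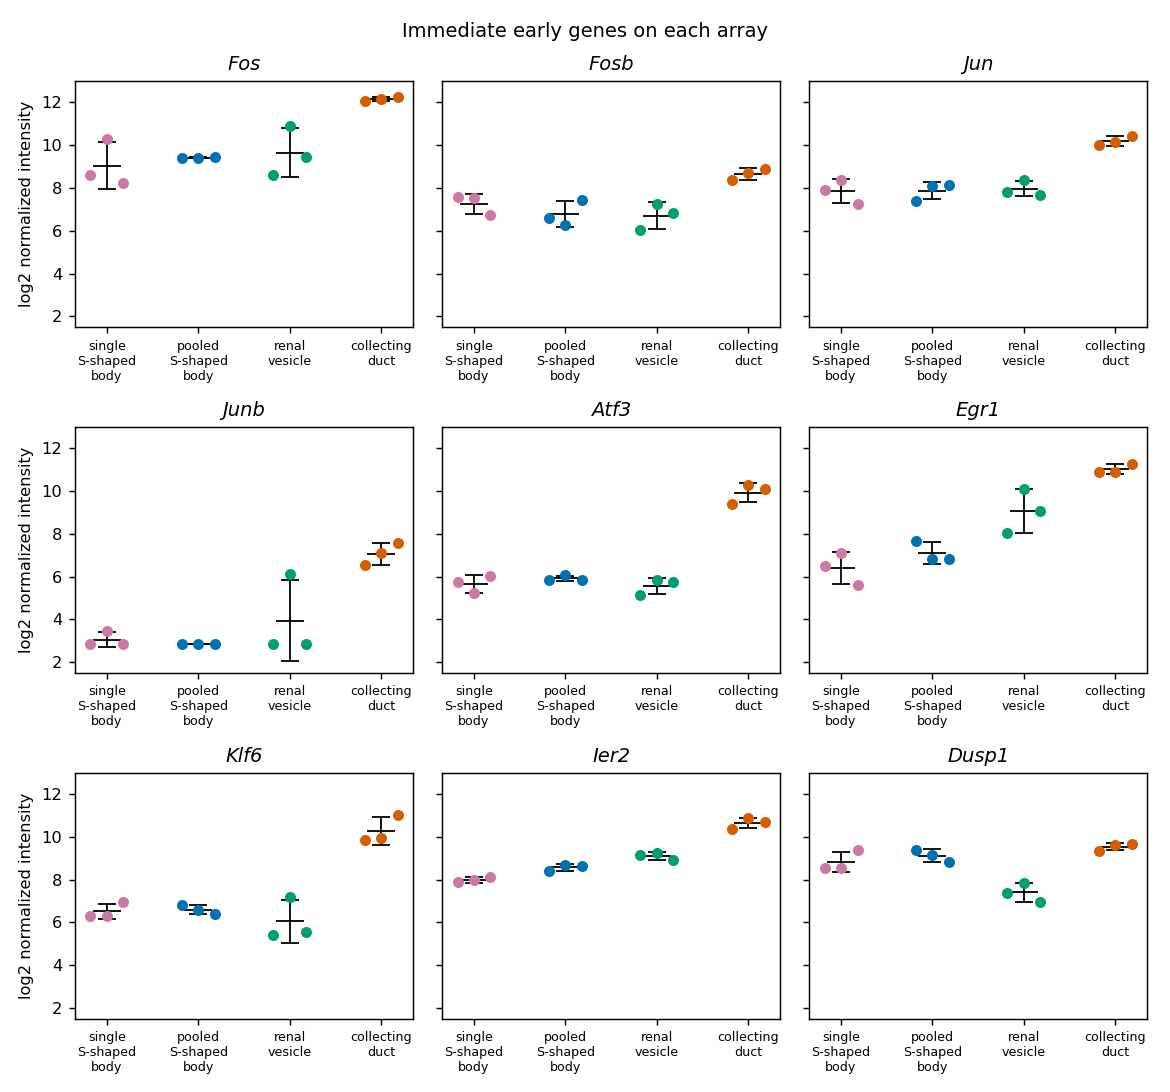
Log2 normalized intensity (vertical axis) of each of the 9 genes on each of the 12 arrays, by group (horizontal axis). Points are arrays in order of replicate number, long bars the mean and whiskers the SD of 3 arrays. For 8 of the 9 genes every collecting duct point lies above every point of the other groups, and Dusp1 is the exception.

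Fos, the AP-1 subunit with the best known transient induction, had levels of 8.62, 10.29 and 8.23 in single S-shaped bodies, 9.39, 9.41 and 9.43 in the pooled S-shaped bodies, 8.60, 10.88 and 9.46 in renal vesicles and 12.09, 12.18 and 12.26 in collecting ducts. All collecting duct arrays lay above all others, the pooled S-shaped bodies were nearly alike, and single S-shaped bodies and renal vesicles each held 1 high array. On the deposited scale, before arrays were brought to a common distribution, Fos averaged 149 in single S-shaped bodies, 889 in the pooled S-shaped bodies, 702 in renal vesicles and 7144 in collecting ducts. It was 8.74-fold lower in single S-shaped bodies than in collecting ducts (log2 change -3.13 ± 0.45 SE, limma adjusted p = 0.00117), and the change was -3.75 without single S-shaped body replicate 4. In pooled S-shaped bodies the change from collecting ducts was -2.77 ± 0.41 (adjusted p = 0.000351) and in renal vesicles it was -2.53 ± 0.41 (adjusted p = 0.00129), or -3.15 without renal vesicle replicate 3. A second Fos probe set was dimmer and was also called lower in each of the 3 comparisons, at least 2.44-fold in single and at least 3.17-fold in pooled S-shaped bodies, and by -1.64 ± 0.37 in renal vesicles.

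Fosb, a second Fos family subunit of AP-1, had levels of 7.56, 7.52 and 6.73 in single S-shaped bodies, 6.61, 6.26 and 7.45 in the pooled S-shaped bodies, 6.06, 7.27 and 6.82 in renal vesicles and 8.35, 8.70 and 8.91 in collecting ducts. The collecting duct arrays again lay above all others, and the 3 nephron groups overlapped. The change from collecting ducts was -1.38 ± 0.27 in single S-shaped bodies, -1.88 ± 0.35 in pooled S-shaped bodies and -1.94 ± 0.35 in renal vesicles (limma adjusted p = 0.00533, 0.00150 and 0.00237).

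Jun, the AP-1 partner that Fos proteins need for DNA binding, had levels of 7.92, 8.37 and 7.25 in single S-shaped bodies, 7.41, 8.09 and 8.15 in the pooled S-shaped bodies, 7.83, 8.36 and 7.69 in renal vesicles and 10.01, 10.16 and 10.43 in collecting ducts. The 3 nephron groups overlapped fully and the collecting ducts stood apart from them. Jun was 5.11-fold lower in single S-shaped bodies, 4.98-fold lower in pooled S-shaped bodies and 4.72-fold lower in renal vesicles than in collecting ducts (limma adjusted p = 0.000449, 2.22e-05 and 5.26e-05).

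Junb, a Jun relative that often restrains Jun activity, was measured above background on all 3 collecting duct arrays, at 6.55, 7.12 and 7.56. It stood at or near the floor elsewhere, at 2.85, 3.46 and 2.85 in single S-shaped bodies, at 2.85 on each pooled S-shaped body array and at 2.85, 6.13 and 2.85 in renal vesicles. Replicate 3 of the renal vesicles was the single array outside collecting duct with Junb above background. Junb was at least 4.09-fold lower in single S-shaped bodies (limma adjusted p = 0.000181) and at least 5.31-fold lower in pooled S-shaped bodies (adjusted p = 0.000882) than in collecting ducts. These bounds set the dimmer group at the lowest intensity above background on each array. In the fit of single and pooled S-shaped bodies alone, Junb fell below the filter on dim probe sets. Both S-shaped body calls were therefore tested only through the other groups of the fit, chiefly collecting ducts, where Junb was high. In renal vesicles the change was -3.13 ± 0.72 (adjusted p = 0.00970). It was -4.22 without replicate 3, the other 2 renal vesicle arrays being at the floor, and ranged up to -2.58 when another array was left out. With no filter on dim probe sets it was not called (adjusted p = 0.0551, in a range of 1.69e-05 to 0.0551 over the alternatives). A second Junb probe set was under background on all 12 arrays and was not tested.

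Atf3, a stress-induced member of the ATF/CREB family, had one of the widest gaps between structures. Its levels were 5.75, 5.21 and 6.03 in single S-shaped bodies, 5.86, 6.07 and 5.85 in the pooled S-shaped bodies, 5.15, 5.82 and 5.75 in renal vesicles and 9.41, 10.27 and 10.10 in collecting ducts. More than 3 log2 units separated the lowest collecting duct array from the highest array of any other group. It was 19.2-fold lower in single S-shaped bodies, 16.02-fold lower in pooled S-shaped bodies and 20.5-fold lower in renal vesicles than in collecting ducts (limma adjusted p = 3.51e-05, 9.39e-07 and 9.43e-07). Of the other Atf3 probe sets, 1 was above background in collecting ducts alone and at least 3.60-fold, 4.68-fold and 5.07-fold lower in single S-shaped bodies, pooled S-shaped bodies and renal vesicles. That probe set fell below the filter on dim probe sets in the fits without collecting duct arrays, so it was tested only through the group where it was high. The remaining Atf3 probe set stood at or under 0 on all 12 arrays.

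Klf6, a Krüppel-like factor that binds GC boxes and core promoters, had levels of 6.32, 6.31 and 6.93 in single S-shaped bodies, 6.80, 6.57 and 6.38 in the pooled S-shaped bodies, 5.41, 7.18 and 5.54 in renal vesicles and 9.83, 9.93 and 11.001 in collecting ducts. The S-shaped body arrays lay close together, and 1 renal vesicle array lay above all of them while the other 2 lay below. Klf6 was 13.3-fold lower in single S-shaped bodies, 12.8-fold lower in pooled S-shaped bodies and 18.5-fold lower in renal vesicles than in collecting ducts (limma adjusted p = 0.000115, 7.77e-05 and 5.42e-05).

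Egr1 is the zinc finger factor induced through SRF and its Elk partners. On its brighter probe set, Egr1 had group means that rose from single to pooled S-shaped bodies, then to renal vesicles and to collecting ducts. Single and pooled S-shaped bodies were not called apart. Its levels were 6.51, 7.10 and 5.59 in single S-shaped bodies, 7.68, 6.83 and 6.81 in the pooled S-shaped bodies, 8.06, 10.10 and 9.07 in renal vesicles and 10.89, 10.89 and 11.28 in collecting ducts. Every renal vesicle array lay above every S-shaped body array and below every collecting duct array, and single and pooled S-shaped bodies overlapped. Against collecting ducts the change was -4.62 ± 0.35 in single S-shaped bodies, -3.91 ± 0.42 in pooled S-shaped bodies and -1.94 ± 0.42 in renal vesicles (limma adjusted p = 5.09e-05, 3.49e-05 and 0.00664). Egr1 was also lower in S-shaped bodies than in renal vesicles, with a change of -2.68 ± 0.53 in single samples (adjusted p = 0.00626) and of -1.97 ± 0.42 in pooled samples (adjusted p = 0.00373). With no filter on dim probe sets the single comparison was not called (adjusted p = 0.0617, in a range of 1.27e-05 to 0.598 over the alternatives). On the deposited scale the pooled change was -0.93 and was not called (adjusted p = 0.0985, in a range of 0.000611 to 0.254 over the alternatives), beside a median of 0.95 over all genes. A second, dimmer Egr1 probe set was above background in collecting ducts alone and did not carry the step between S-shaped bodies and renal vesicles, with a change of 0.42 in pooled S-shaped bodies and -0.33 in single ones, both groups being under background.

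Ier2, a nuclear protein induced by growth factors, had the same order of groups with a narrower span. Its levels were 7.87, 7.98 and 8.14 in single S-shaped bodies, 8.39, 8.69 and 8.62 in the pooled S-shaped bodies, 9.15, 9.26 and 8.92 in renal vesicles and 10.37, 10.86 and 10.67 in collecting ducts. No group overlapped its neighbour in that order. The change from collecting ducts was -2.64 ± 0.17 in single S-shaped bodies, -2.07 ± 0.16 in pooled S-shaped bodies and -1.52 ± 0.16 in renal vesicles (limma adjusted p = 2.36e-05, 2.79e-06 and 4.40e-05). Ier2 was lower in single S-shaped bodies than in renal vesicles, with a change of -1.11 ± 0.19 (adjusted p = 0.00358). The smaller step of pooled S-shaped bodies from renal vesicles, -0.54 ± 0.16, was called (adjusted p = 0.0185) but not with the variance trend left out (adjusted p = 0.0527), without renal vesicle replicate 2 (adjusted p = 0.0504), without renal vesicle replicate 3 (0.0542) or without pooled S-shaped body replicate 1 (0.0736), and on the deposited scale it reversed to 0.43, under the median of 0.95 over all genes. Its adjusted p ranged from 0.00644 to 0.107 over the alternatives.

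Dusp1, the phosphatase that switches off the kinases upstream of the other genes, did not follow them in S-shaped bodies. Its levels were 8.54, 8.53 and 9.36 in single S-shaped bodies, 9.39, 9.15 and 8.81 in the pooled S-shaped bodies, 7.38, 7.85 and 6.97 in renal vesicles and 9.34, 9.64 and 9.66 in collecting ducts. Both S-shaped body groups overlapped collecting ducts, and all renal vesicle arrays lay below every other array. Dusp1 was 4.42-fold lower in renal vesicles than in collecting ducts (log2 change -2.14 ± 0.23, limma adjusted p = 5.81e-05). It was higher in S-shaped bodies than in renal vesicles, by 1.41 ± 0.31 in single samples (adjusted p = 0.0106) and by 1.72 ± 0.23 in pooled samples (adjusted p = 0.000213). The single comparison was not called with no filter on dim probe sets (adjusted p = 0.0581) or with the replicate number as a block (change 1.12, adjusted p = 0.0856), in a range of 0.00104 to 0.905 over the alternatives. On the deposited scale the single value was -0.10, beside a median of -1.13 over all genes. Pooled S-shaped bodies differed from collecting ducts by -0.43 (95% interval -0.93 to 0.07, adjusted p = 0.168), which was not called. Single S-shaped bodies differed from collecting ducts by -0.73 ± 0.24 (adjusted p = 0.0481), a call that was lost without collecting duct replicate 1 (adjusted p = 0.0803), 2 (0.143) or 3 (0.149) and without single S-shaped body replicate 3 (0.117) or 4 (0.133). It was also lost with a pseudocount of 10% of the median (0.0523), 75th percentile scaling (0.0771), no variance trend (0.105) and no filter (0.132), in a range of 5.23e-05 to 0.149 over the alternatives.

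**Figure D2:**
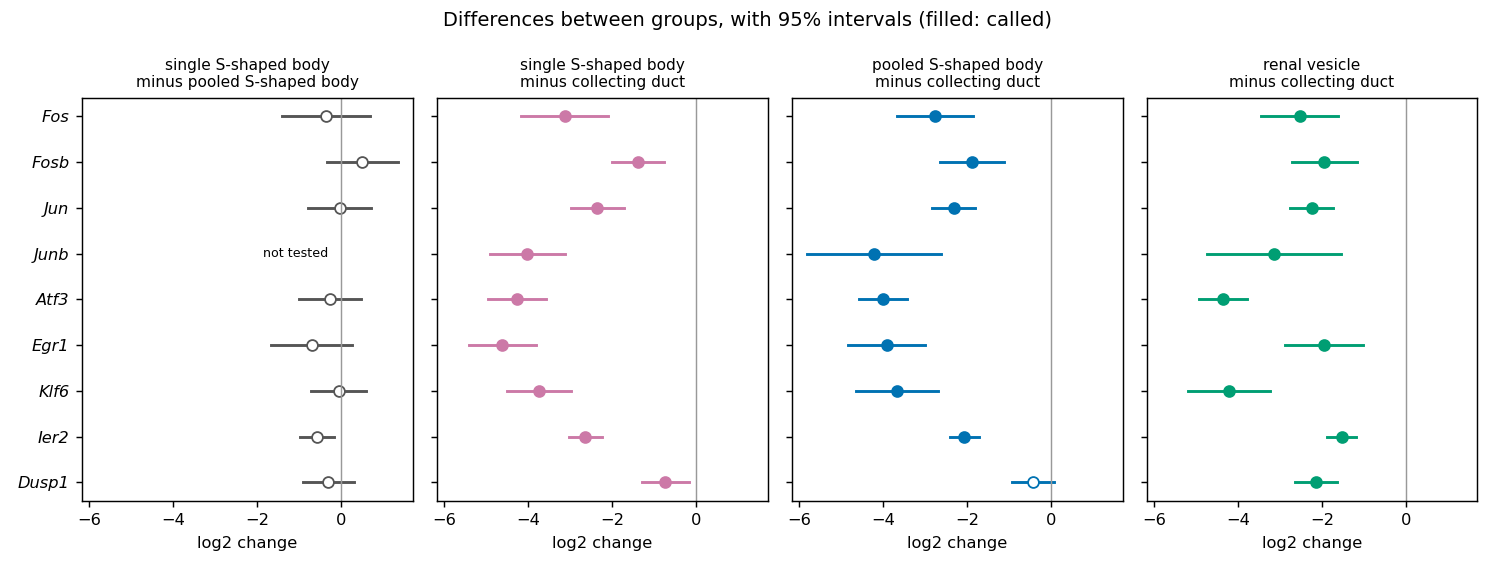
Log2 change of each gene (horizontal axis) in 4 comparisons, with 95% intervals from limma on 3 arrays a group, filled where called at an adjusted p under 0.05. Against collecting ducts the points lie left of 0 in all 3 groups, from -4.62 for Egr1 in single S-shaped bodies to -0.43 for Dusp1 in pooled ones, while single minus pooled S-shaped body has no filled point.

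Between the nephron stages the 9 genes did not move as a block. In pooled S-shaped bodies minus renal vesicles 1 gene was called higher (Dusp1) and 2 were called lower (Egr1 and Ier2), and the same counts held for single S-shaped bodies minus renal vesicles. Of all genes, 18.1% were called higher and 20.2% lower in pooled S-shaped bodies, and 12.2% higher and 15.6% lower in single ones. The median change of the 9 genes was -0.11 in single and -0.08 in pooled S-shaped bodies, close to that of all genes at -0.04 in both. Without renal vesicle replicate 3, Klf6 was also called in pooled S-shaped bodies, higher by 1.11 (limma adjusted p = 0.0214, in a range of 0.0119 to 0.761 over the alternatives).

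Pooling was addressed by setting single against pooled S-shaped bodies, the same structure at 1 and at 20 per sample. None of the 8 genes tested was called by limma, and Junb, under background in both groups, fell below the filter on dim probe sets. Of all genes, 0.327% were called. At an unadjusted p under 0.05 there was 1 of the 8, Ier2, with a change of -0.57 (95% interval -0.97 to -0.17, adjusted p = 0.159). The share of all genes at that unadjusted threshold was not computed. Every single array lay below every pooled one for Ier2, as for 14.0% of all genes. The intervals of the other members reached from -1.68 to 0.27 for Egr1, from -1.42 to 0.70 for Fos, from -0.35 to 1.35 for Fosb, from -0.79 to 0.71 for Jun, from -1.001 to 0.48 for Atf3, from -0.71 to 0.58 for Klf6 and from -0.91 to 0.30 for Dusp1. These data therefore leave room for changes of 1 log2 unit or more in Egr1, Fos, Fosb and Atf3 between single and pooled samples. Spread within groups differed by gene: Fos had an SD of 1.10 in single and 0.02 in pooled samples, and Fosb 0.47 in single and 0.61 in pooled ones.

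On the deposited scale all 8 genes were called lower in single than in pooled S-shaped bodies, with changes from -2.03 for Fosb to -3.16 for Ier2, where the median of all genes was -2.28. The 9 genes kept their distance from collecting ducts there, with a median change that differed from that of all genes by -2.998 in single S-shaped bodies, -2.53 in pooled ones and -2.35 in renal vesicles. The position of each gene on its own array does not depend on brightness. By that measure Fos stood at percentiles 85.1 to 97.1 in single S-shaped bodies, 93.3 to 93.5 in the pooled S-shaped bodies, 88.2 to 98.6 in renal vesicles and 99.8 to 99.9 in collecting ducts. Egr1 stood at 55.4 to 73.8 in single S-shaped bodies, 70.5 to 80.1 in the pooled S-shaped bodies, 83.6 to 96.5 in renal vesicles and 98.6 to 99.2 in collecting ducts.

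**Figure D3:**
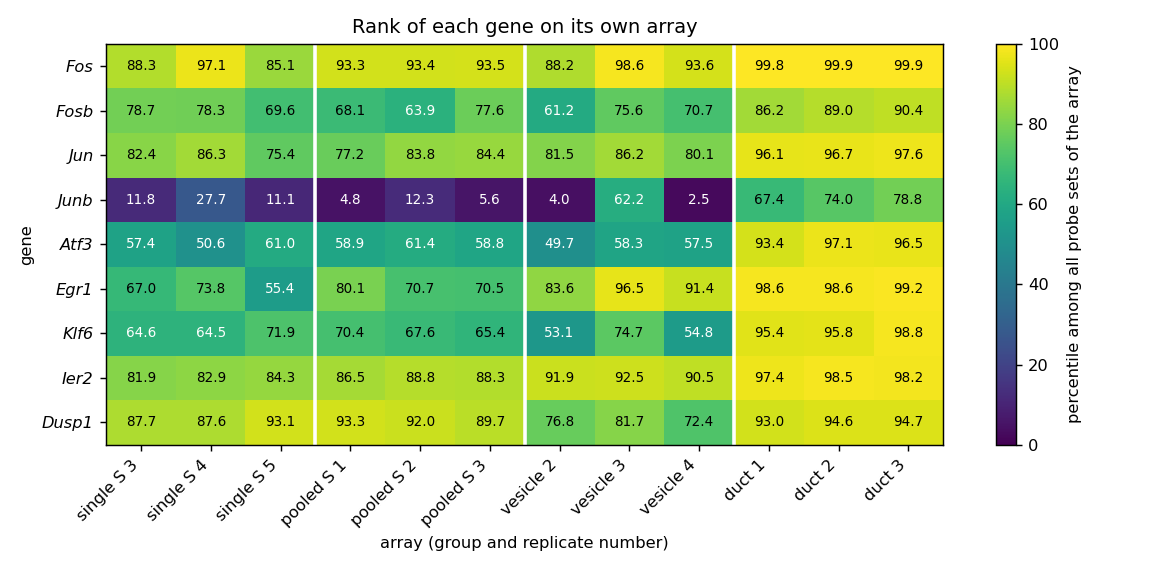
Percentile of each gene (rows) among all probe sets of the same array (columns, by group and replicate number), printed in each cell and shown as colour from 0 to 100. A row compares 1 gene across arrays and the rows are not to be set against each other; in 8 of 9 rows the 3 collecting duct cells are the highest.

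In renal vesicles and collecting ducts the genes also varied together by array. Renal vesicle replicate 3 was the highest array of its group for 9 of 9 genes, where 29.7% of all genes were highest on it. That array also had more signal of the ureteric bud and collecting duct markers, with a mean level of 5.71 over the 14 genes, against 4.42 in replicate 2 and 4.65 in replicate 4. Of these markers 11 were above background on replicate 3, 6 on replicate 2 and 7 on replicate 4. Collecting ducts had a mean level of 7.85 to 7.86 over the same markers. Summed endothelial markers were 3176 on replicate 3 and 1504 and 1531 on replicates 2 and 4. Stromal markers summed to 1925 on replicate 3 (12 of 13 above background), 432 on replicate 2 (7 of 13) and 964 on replicate 4 (10 of 13), and podocyte markers to 4452 on replicate 3, 1276 on replicate 2 and 1987 on replicate 4. Red blood cell markers were highest on replicate 2, at 842, against 157 on replicate 3 and 124 on replicate 4. What part these markers have in the higher levels on replicate 3 was not tested. Without that array all 9 genes were still called lower in renal vesicles than in collecting ducts, with changes from -1.60 for Ier2 to -4.78 for Klf6, and the Egr1 change was -2.46 in place of -1.94. Among collecting ducts, replicate 3 was highest for 7 of 9 genes, where 31.6% of all genes were highest on it. Replicate 1 was lowest for 8 of 9, with no share of all genes computed to set beside it. The ureteric bud marker means of the collecting duct arrays differed by less than 0.01. No array was common to most genes in S-shaped bodies: at most 3 of 9 genes were highest on 1 pooled array and at most 4 of 9 on 1 single array. Of all genes, 27.9% to 32.9% were highest on a given pooled array and 28.8% to 32.9% on a given single array.

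Over the 12 arrays the 36 pairs of genes had Pearson correlations between 0.09 and 0.97 with a median of 0.85. These points share the 3 bright collecting duct arrays and the normalization. Over the 9 arrays without collecting duct the range was -0.72 to 0.77 and the median 0.24, so most of the likeness lay in the gap between collecting ducts and the rest. The genes outside the 9 whose levels were most like their mean profile over 12 arrays were Kcnk1, a potassium channel (r = 0.98), Hcn2, a cation channel (0.98), Esrp1, an epithelial splicing regulator (0.98), Fxyd3, a regulator of the sodium pump (0.98), and Pkhd1, the gene of recessive polycystic kidney disease (0.98). Outside collecting ducts Hcn2 averaged 2.85 to 3.02, at or near the floor, and Fxyd3 and Pkhd1 2.97 to 3.65. Their likeness is therefore mainly the step to collecting ducts. Kcnk1 averaged 5.83 to 6.11 there and 8.81 in collecting ducts. Without the single S-shaped bodies, over 9 arrays, the list held Esrp1, Fxyd3, Kcnk1, Pkhd1 and Ddit4, an inhibitor of mTORC1 (r = 0.99 for Ddit4).

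Other immediate early genes leaned lower than in collecting ducts. In direction, 31 of 39 were lower and 7 higher in renal vesicles, and 29 lower and 10 higher in pooled S-shaped bodies. Of 39 tested in renal vesicles minus collecting ducts, 3 were called higher and 21 lower, beside 13.3% and 12.2% of all genes, with a median change of -0.85. Nr4a1, an orphan nuclear receptor, averaged 5.45 ± 1.20 in renal vesicles and 10.32 ± 0.20 in collecting ducts (SD, n = 3 each, log2 change -4.86, limma adjusted p = 2.03e-05). Egr2, a relative of Egr1, changed by -3.68 and Rgs2, a brake on G protein signalling, by -3.52. In pooled S-shaped bodies minus collecting ducts 7 of 39 were called higher and 21 lower, beside 18.8% and 21.1% of all genes, with a median change of -0.75. Egr2 averaged 5.45 ± 0.65 in pooled S-shaped bodies, against 10.05 ± 0.24 in collecting ducts (log2 change -4.59, adjusted p = 2.56e-06). Klf2, a factor of endothelium under flow, was at least 5.19-fold higher in pooled S-shaped bodies, and Sgk1, a kinase regulated by steroid hormones, was higher by 4.21 ± 0.27. Endothelial markers, summed above, were higher with them, with 9 of 9 called. Stromal markers were higher for 11 of 13, with sums of 4716 to 6506 in pooled S-shaped bodies and 360 to 494 in collecting ducts. Red blood cell markers were higher for 5 of 7, with sums of 5261 to 6998 in pooled S-shaped bodies and 151 to 200.3 in collecting ducts. The part of these cells in the changes was not tested. In single S-shaped bodies minus collecting ducts 7 of 38 other immediate early genes were called higher and 17 lower, beside 16.1% and 18.9% of all genes. In single minus pooled S-shaped bodies none of 37 was called by limma. An unadjusted p under 0.05 was found for 6, with no share of all genes computed to set beside it.

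**Figure D4:**
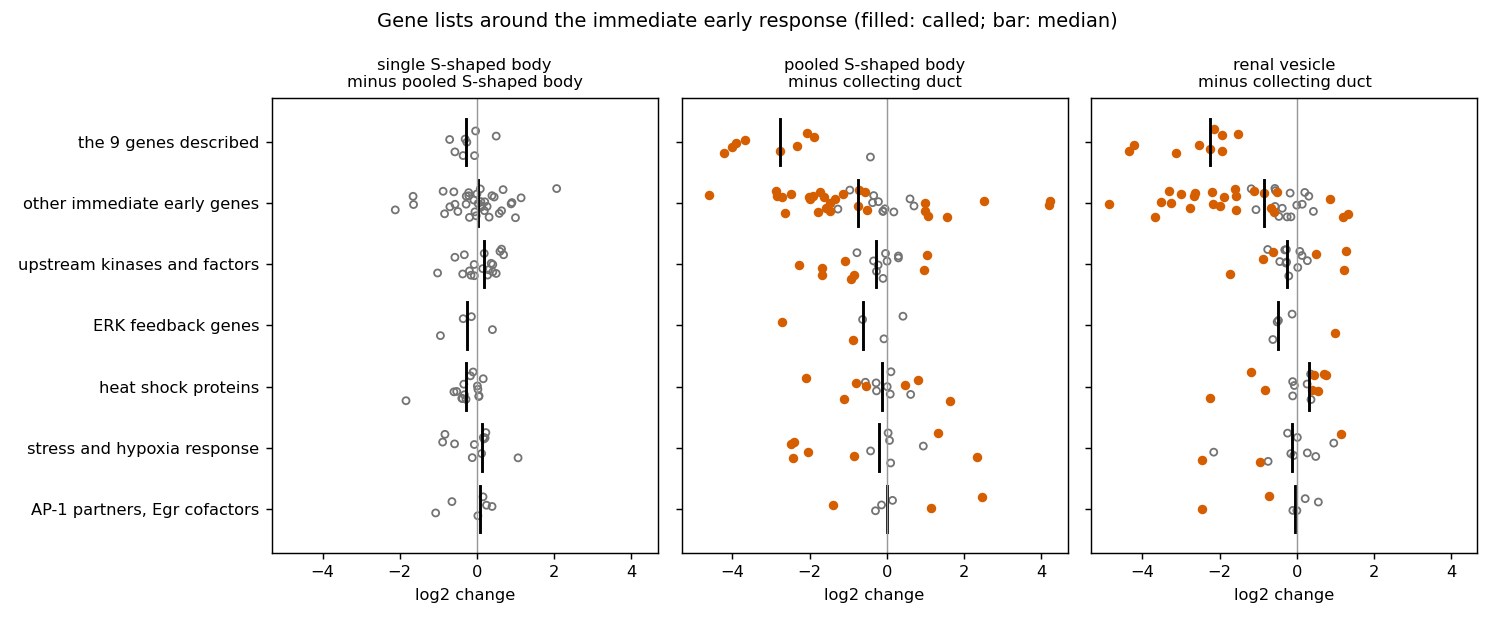
Log2 change (horizontal axis) of every tested gene of 7 lists (rows) in 3 comparisons, filled where called, with a black bar at the list's median. Against collecting ducts the 9 genes run from -4.36 to -1.52 in renal vesicles and from -4.22 to -0.43 in pooled S-shaped bodies, while the other immediate early genes spread from -4.86 to 1.34 in renal vesicles and from -4.59 to 4.23 in pooled S-shaped bodies.

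Genes upstream of the response were called in both directions, as genes in general were. Of 17 kinases, receptors and factors, 3 were higher and 3 lower in renal vesicles than in collecting ducts, beside 13.3% and 12.2% of all genes. In pooled S-shaped bodies 2 were higher and 6 lower, beside 18.8% and 21.1%, and in single ones also 2 and 6, beside 16.1% and 18.9%. Egfr, the EGF receptor, was at least 1.59-fold lower in renal vesicles, where Fgfr1, an FGF receptor, was higher by 1.28 and Creb1, which binds the cAMP response element, was at least 1.21-fold higher. Fgfr2, the FGF receptor of ureteric epithelium, changed in pooled S-shaped bodies by -2.27 ± 0.15, Atf4, the factor of the integrated stress response, by -1.68 and Egfr by -1.67. Among 5 genes of ERK feedback, Dusp9, an ERK phosphatase, was higher in renal vesicles by 0.99 ± 0.31 (limma adjusted p = 0.0410) and at least 2.55-fold lower in pooled S-shaped bodies. Etv4, an ETS factor that follows FGF and GDNF signals, changed in pooled S-shaped bodies by -0.87.

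Heat shock genes were called in both directions in renal vesicles and pooled S-shaped bodies, as genes in general were. Of 14 heat shock genes, 5 were higher and 3 lower in renal vesicles than in collecting ducts, beside 13.3% and 12.2% of all genes, with a median change of 0.31. Hspa1b, an inducible Hsp70, changed by -2.26 ± 0.47 (limma adjusted p = 0.00570), and its cochaperones Dnajb1 and Dnaja1 by -1.19 and -0.81. The pooled S-shaped bodies had 3 of 14 higher and 4 lower than collecting ducts, beside 18.8% and 21.1% of all genes, with a median change of -0.13. In single S-shaped bodies 0 were higher and 5 lower, beside 16.1% and 18.9%, with a median change of -0.30. Against collecting ducts Dnajb1 changed in pooled S-shaped bodies by -2.10, Bag3, a cochaperone of Hsp70, by -1.10 and Hspb8, a small heat shock protein, by 1.64. Of 12 genes of the integrated stress and hypoxia responses, 1 was higher and 2 lower in renal vesicles (beside 13.3% and 12.2% of all genes): Vegfa, the endothelial growth factor, changed by 1.15, Ddit4 by -2.46 and Bnip3, a mitophagy receptor, by -0.96. In pooled S-shaped bodies 2 were higher and 5 lower, with Slc2a1, a glucose transporter, at -2.48, Ddit4 at -2.41 and Atf5, a relative of Atf4, at least 2.04-fold lower. The 2 of 12 called higher compare with 18.8% of all genes and the 5 of 12 called lower with 21.1%. In single S-shaped bodies 3 were higher and 3 lower, beside 16.1% and 18.9%. The labels give no time between excision and lysis, and handling of the samples was not tested.

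Partners and cofactors of the 9 proteins were fewer on the array. Of 6 tested, none was higher and 2 lower in renal vesicles than in collecting ducts, beside 13.3% and 12.2% of all genes: Nfe2l2, a leucine zipper factor of the oxidative stress response, changed by -2.46 ± 0.18 (limma adjusted p = 3.23e-06) and Batf3, a leucine zipper partner of Jun, by -0.71. The pooled S-shaped bodies had 2 higher and 1 lower, beside 18.8% and 21.1%: Nab1, a corepressor of Egr1, was higher by 2.48 ± 0.22 (adjusted p = 9.28e-06) and Mafg, a small Maf protein, by 1.15, and Nfe2l2 changed by -1.39. None of the 5 lists other than the immediate early genes had a call in single minus pooled S-shaped bodies, where limma's unadjusted p was under 0.05 for 5 of 19 upstream genes, 1 of 4 feedback genes, 2 of 15 heat shock genes, 0 of 11 stress and hypoxia genes and 0 of 6 partners. The share of all genes under that unadjusted threshold was not computed, so these counts are not read as an effect of pooling.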

How the data were processed

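The 12 samples are microdissected structures of E14.5 mouse kidneys on MG_U74Av2 arrays. RNA was prepared with TRIzol and amplified by an Arcturus kit over 2 rounds, per the labels' protocols. GCOS is named in the submitters' processing notes, without a version. The deposited intensity values are on a linear scale with some below 0. The sources used here give neither their scaling between arrays nor the summary method.

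After 66 controls were left out, 12422 probe sets remained. Their values were quantile normalized over 12 arrays, set to 0 where negative, raised by a pseudocount of 7.22 (25% of the median) and taken to log2. The log2 values here were computed from the authors' deposited intensities. The dimmest 25% of probe sets by mean were dropped, and limma 3.58.1 (R 4.3.3, lmFit and eBayes with trend, two-sided) was fitted to collecting ducts, renal vesicles and pooled S-shaped bodies together (9 arrays), and to 6 arrays for each comparison with single S-shaped bodies. Each gene is represented by its single-symbol probe set with the highest mean. The fit was tested on simulated data. Probe sets were named from GEO's platform annotation: 10833 had 1 symbol, 396 several and 1193 none, and 10817 of the 10833 matched RefSeq. No 2 arrays held identical values.

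The members and gene lists were chosen with earlier results of these data known. From each list the text names the 3 called genes that changed most, for pooled S-shaped body minus collecting duct and for renal vesicle minus collecting duct. The number of arrays limits the precision.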

Additional observations from a re-analysis of the deposited data

How the results depend on the processing

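The members called lower than collecting ducts numbered 8 to 9 in renal vesicles, 7 to 9 in pooled S-shaped bodies and 8 to 9 in single S-shaped bodies over the alternatives run, and no member reversed in these 3 comparisons. On the deposited scale the probe sets called were 7268 in renal vesicles minus collecting ducts (2225 in the reported fit), 8299 in single S-shaped bodies minus collecting ducts (3152), 5432 in pooled S-shaped bodies minus renal vesicles (3423), 4349 in single S-shaped bodies minus renal vesicles (2525) and 8345 in single minus pooled S-shaped bodies (37). The median of all genes there was -1.41 in renal vesicles and -2.66 in single S-shaped bodies, each minus collecting duct. For the other comparisons listed it is given above. On that scale 5 members were called, all higher, in pooled S-shaped bodies minus renal vesicles, and 8, all lower, in single minus pooled. Reversed on that scale were Jun at 1.03, Fos at 0.75 and Ier2 at 0.43 (pooled minus renal vesicle), Fosb at -2.03 (single minus pooled) and Atf3 at -0.96, Klf6 at -0.74, Fosb at -0.83 and Dusp1 at -0.10 (single minus renal vesicle). Other probe sets reversed for Atf3 at -0.54 and Egr1 at 0.42 (pooled minus renal vesicle) and Fos at 0.46 (single minus pooled). In single minus pooled, 146 probe sets were called after 75th percentile scaling, 19 after dropping the dimmer 50% of probe sets and 424 with all 12 arrays in the fit. With no filter, 1 member (Ier2) was called in single S-shaped bodies minus renal vesicles, the Egr1 and Dusp1 calls being lost. With the replicate number as a block, 1383 probe sets were called in renal vesicles minus collecting ducts and 1113 in single S-shaped bodies minus renal vesicles, where 2 members were called in place of 3 (Dusp1 was lost) and Atf3 reversed to -0.30, Klf6 to -0.0495 and Jun to 0.12. Deviations of same-numbered samples correlated between -0.09 and 0.05, so the numbers were not taken as pairs. No paired analysis was possible for single minus pooled S-shaped body or single S-shaped body minus collecting duct because those groups share 1 number. The causes of these shifts were not tested. Leaving out 1 array at a time gave 1 to 72 probe sets in single minus pooled (lowest without pooled replicate 2, highest without single replicate 5) and 1539 to 2344 in single minus renal vesicle (lowest without renal vesicle replicate 2). Changes then ranged across 0 in pooled minus renal vesicle for Jun (-0.21 to 0.16), Fos (-0.76 to 0.38) and Fosb (-0.28 to 0.34), in single minus pooled for Klf6 (-0.27 to 0.0440), Jun (-0.30 to 0.26) and Fos (-0.98 to 0.0507), and in single minus renal vesicle for Atf3 (-0.12 to 0.32), Jun (-0.38 to 0.18) and Fos (-1.22 to 0.0190), none of which was called. Precision is limited by 3 arrays a group, by the 2 rounds of amplification and, for Junb, by signal near background.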
